A study of Homo sapiens with 36 samples.

Results

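A549 cells that had lived without IL-1β for 15 days, after 21 days in its presence, were compared with A549 cells that never received it. A549 is an established human lung adenocarcinoma line, a form of non-small cell lung cancer. The libraries were chosen by their labelled time point, day 15 after treatment, which gives 6 of the 36 libraries of the series and 2 of its 12 groups. The previously treated cells had been cultured with IL-1β at 1 ng/ml and then in medium lacking it, whereas the control cells were cultured in the same serum-containing RPMI medium throughout. Each group has replicates A, B and C, which the labels call biological without saying whether the 3 cultures were exposed independently. The p-values therefore measure only the spread between replicate libraries, estimated jointly over the 12 groups of the series. All groups derive from 1 cell line. Libraries from day 21 of exposure and from days 6 and 30 after withdrawal, 3 treated and 3 control at each, were used to place the values in time.

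IL-1β binds a receptor of the Toll and IL-1 receptor family on the cell surface, and the signal reaches NF-κB and AP-1, transcription factors that switch on chemokines, cytokines and their own inhibitors. In lung epithelial cells, long exposure can also drive an epithelial-to-mesenchymal transition (EMT), in which cadherins, claudins and simple keratins are lost and matrix and motility genes are gained. A transcript that depends on the ongoing signal is expected to return to its baseline when the cytokine is removed, and one that does not return is said to be memorized. The question put to these libraries was which genes of each kind still differed 15 days after withdrawal.

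Between 11921792 and 20058561 reads were counted on genes in the 6 libraries. Levels are in CPM, or counts relative to library size, scaled by edgeR's TMM factors. Mitochondrial transcripts divided the libraries across the treatment groups. They took 6.74%, 24.6% and 22.4% of the counts in control replicates A, B and C, and 6.46%, 15.3% and 6.95% in the previously treated replicates in the same order. The first principal component, with 62.3% of the variance, placed control B, control C and treated B on one side and the other 3 libraries on the opposite one. Every difference can therefore be read once within the high-mitochondrial libraries (treated B against controls B and C) and once within the low ones (treated A and C against control A), and these values are given as the low and high class. Fewer cells of a state and less RNA per cell cannot be told apart in such bulk samples.

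Of 6 epithelial markers, KRT7, KRT8, KRT18 and CDH1 were abundant, whereas EPCAM was at 0.385 to 1.62 CPM and KRT19 had 5 reads in all 6 libraries. The 6 summed to 5202 to 6497 CPM in the control libraries and to 3222 to 5421 CPM in the previously treated ones. Leukocyte markers summed to between 10.5 and 16.6 CPM in the treated libraries and to at most 17.5 CPM in the controls, with CD3E at 0. Fibroblast markers stayed at or under 2.23 CPM in all 6 libraries, with COL3A1, LUM and THY1 at 0, and endothelial markers at or under 0.770 CPM. Alveolar type II markers were also low, between 12.8 and 25.9 CPM, and the surfactant genes SFTPA1 and SFTPA2 were at 0.

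Of 19180 genes tested, 183 (0.954%) were past both limits set for a difference between previously treated and control cells, a fold change of more than 2 and an adjusted p below 0.05 in edgeR's quasi-likelihood test. Such genes are referred to as changed. At an unadjusted p under 0.05 alone there were 1679 (8.75%), the share to set beside such counts in the lists below. Of the 183 genes, 114 were higher (0.594%) and 69 lower (0.36%) after withdrawal, with median log2 fold changes of 1.60 and -1.68. These shares are the background for the counts of changed list members below. The 3 treated libraries lay wholly above the 3 controls for 113 of the 114 higher genes, and wholly below for all of the 69 lower genes, while over all genes tested 6.02% and 4.9% were separated in this way. The 183 genes were called on these same 6 libraries, so their separation is no independent support. It was also required of the 15 largest changes named in each direction. Groups that do not overlap must differ in the same direction in both mitochondrial classes, so the sign there is no separate check. The log2 difference exceeded 1 in each class for 80 and 47 of these genes. With that class as a covariate 110 and 63 of them were called, and without the high-mitochondrial libraries, which leaves 1 control library, 15 and 8. A total-count scaling shifted the median log2 fold change of all genes from 0.02 to 0.21 and changed the split to 170 higher of 210, or 80.95% against 62.3%. Under that scaling the lower genes CGN, FN1, BMP4, HNF4A, SOX2, HGD, TMTC2, CADM1 and CNKSR2 and the higher gene CLIC3, all described below, were no longer called. The number of changed genes depended on single libraries. It was 64 without control C, 79 without treated A and 110 without control B, and between 148 and 209 without treated B, treated C or control A. Fitting the 6 libraries alone, with 4 residual degrees of freedom, left 2 genes past both thresholds and 1004 at an unadjusted p under 0.05.

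**Figure D1:**
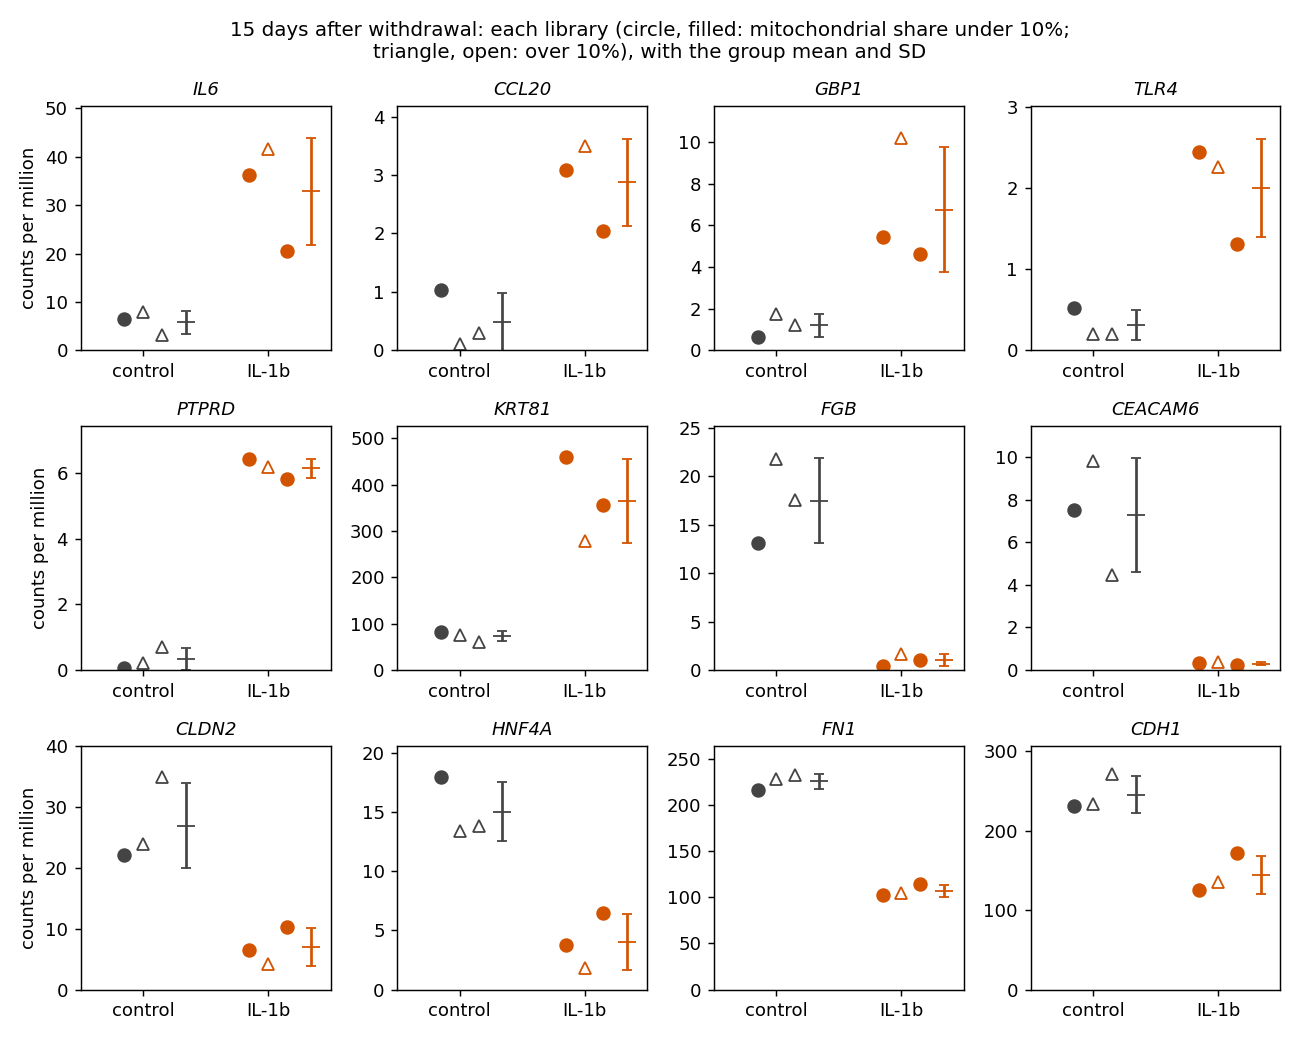
CPM (linear vertical axis) of 12 named genes, one panel each, in the 6 libraries, with controls on the left, previously treated cells on the right and the group mean with its SD beside them; filled circles are libraries with under 10% mitochondrial counts and open triangles those above. The groups are apart in all 12 panels, including CDH1, whose difference did not pass the test.

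Most of the changed genes were already altered while IL-1β was present. At day 21 of exposure, which has its own control libraries, 817 genes were changed (4.26% of those tested). These include 79 of the 114 genes that were higher 15 days after withdrawal (69.3% of them, and 18.8% of the 421 higher at day 21). For the lower genes the overlap was 62 of 69 (89.9%, and 15.7% of the 396 lower at day 21). Over all genes tested, 2.19% were higher and 2.06% lower at day 21. None of the 183 was changed in the opposite direction at any other time point. Measured over all genes changed at day 21, the median share of the day 21 log2 fold change still present was 0.51 for those that rose (interquartile range 0.29 to 0.74) and 0.40 for those that fell (0.24 to 0.58). Of the 183 genes, 30 higher and 5 lower ones were not called at days 6, 15 or 21 of exposure, when 2.77%, 4.24% and 4.26% of all genes tested were called.

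**Figure D2:**
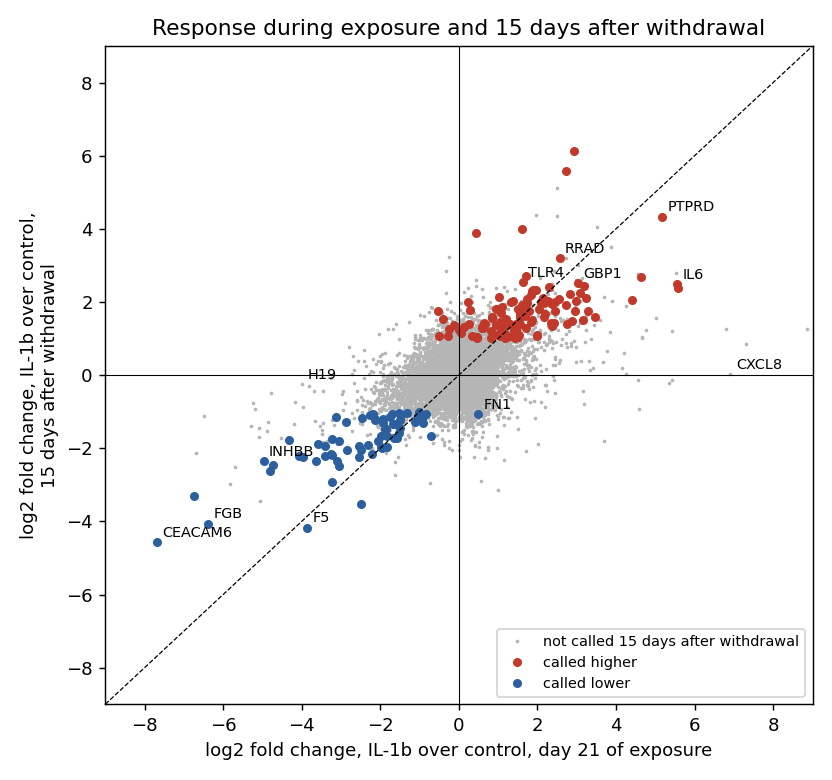
Log2 fold change against control at day 21 of exposure (horizontal axis) and 15 days after withdrawal (vertical axis), one point per tested gene, with genes changed after withdrawal in red (higher) and blue (lower) and a dashed line of equality. CXCL8 and H19 lie near the horizontal line at 0, and PTPRD, at 5.17 and 4.33, lies close to the line of equality.

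Chemokines, which attract leukocytes, had mostly returned to the level of the control cells. Of 11 tested, 7 were higher at day 21 with a median log2 fold change of 3.77. At 15 days after withdrawal CCL20 and CCL26 were higher, none was lower, and the median was 0.20, beside 0.02 over all genes tested. Promoters of CXCL8, CXCL1, CCL20 and the cytokine IL6 are shown because NF-κB or AP-1 motifs lie close to their start sites. Only exact matches of the motif named on each line are in capitals, so an unmarked stretch may still hold another form of a site. The windows hold the 150 bases before the RefSeq start on GRCh38.p14, written along the gene's strand, with motif letters in capitals.
CXCL8, AP-1, chr4:73740419-73740568, plus strand: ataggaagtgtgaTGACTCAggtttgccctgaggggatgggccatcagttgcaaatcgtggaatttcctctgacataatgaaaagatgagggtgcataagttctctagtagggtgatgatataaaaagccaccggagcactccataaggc
CXCL1, NF-κB, chr4:73869243-73869392, plus strand: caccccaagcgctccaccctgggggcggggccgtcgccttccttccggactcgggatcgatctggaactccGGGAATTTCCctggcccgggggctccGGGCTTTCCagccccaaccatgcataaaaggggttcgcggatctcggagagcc
CCL20, NF-κB on the reverse strand, chr2:227813692-227813841, plus strand: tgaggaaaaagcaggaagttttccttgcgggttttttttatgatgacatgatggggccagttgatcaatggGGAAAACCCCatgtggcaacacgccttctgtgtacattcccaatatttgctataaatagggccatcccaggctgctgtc
IL6, NF-κB, chr7:22727050-22727199, plus strand: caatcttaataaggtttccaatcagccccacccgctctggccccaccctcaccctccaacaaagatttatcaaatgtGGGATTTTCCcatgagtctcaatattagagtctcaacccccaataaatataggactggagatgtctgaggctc

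CXCL8, the neutrophil chemokine also known as IL-8, lies on chromosome 4 at 74606236 to 74609433 on GRCh37, the build of the counts. Its level had risen to 84.5 CPM ± 13.8 (SD, n = 3) at day 21 from 0.697 ± 0.139 in the controls of that day, a log2 fold change of 6.91 ± 0.45 (SE). After 15 days without IL-1β the control replicates A, B and C had 1.43, 0.816 and 1.42 CPM and the previously treated ones 0.834, 2.04 and 0.978. These groups overlap, and the log2 fold change was 0.02 ± 0.46 (adjusted p = 0.994). The response itself differed from that at day 21 by -6.89 (adjusted p = 9.77e-08 in edgeR's test of the interaction). CXCL1, another neutrophil attractant whose window above holds 2 NF-κB motifs, was also near the control level. It was at 3.25, 2.35 and 3.45 CPM in the controls and 2.25, 2.69 and 3.31 in the treated cells, a log2 fold change of -0.13 ± 0.30, against 5.43 at day 21. CCL2, a monocyte attractant, was at 0.66 ± 0.40 (adjusted p = 0.728), and the difference from its day 21 response of 3.77 was -3.11 (adjusted p = 0.00397).

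CCL20, which attracts cells through the receptor CCR6, did not return fully to baseline. It was at 1.04, 0.102 and 0.305 CPM in the controls and rose to 3.08, 3.49 and 2.05 in previously treated cells, with a log2 fold change of 2.39 ± 0.45 (adjusted p = 0.00336). This was less than the 5.57 of day 21 by 3.18 on the log2 scale (adjusted p = 0.0182), a difference whose adjusted p was 0.573 without control A, where it was -1.81, and 0.0639 without treated C. The log2 difference was 1.18 in the low class and 3.54 in the high one. CCL26, an eosinophil attractant, followed another course, since it was at 0.24 at day 21. Controls had 1.36, 1.12 and 1.32 CPM against 6.16, 4.44 and 4.66 in treated cells 15 days after withdrawal, a log2 fold change of 1.99 ± 0.39 (adjusted p = 0.00543), but the difference from day 21 did not pass the test (adjusted p = 0.282).

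Of 14 tested cytokines and colony-stimulating factors, 9 were higher at day 21, and IL6 and CSF1 were higher 15 days after withdrawal, none lower, with a median log2 fold change of 1.11. Over all genes tested, 2.19% and 0.594% were higher at these times. IL6, a cytokine that signals through STAT3, was at 6.43, 7.85 and 3.15 CPM in the controls and at 36.2, 41.7 and 20.5 CPM in the previously treated cells. The log2 fold change was 2.49 ± 0.52 (adjusted p = 0.00949), beside 5.55 at day 21. The difference between the responses, -3.06, had an adjusted p of 0.055. CSF1, the growth factor of macrophages, was higher at 176, 118 and 170 CPM against 90.2, 72.1 and 68.7 (log2 fold change 1.00 ± 0.26, adjusted p = 0.0455), and its fold was just under 2 with DESeq2 (0.99). CSF1 was also not called with the mitochondrial covariate, where it was at 0.94. Neither was it called without mitochondrially encoded genes (0.98, adjusted p = 0.0514 in edgeR's test). IL6 lost its call without control C (adjusted p = 0.113), and CSF1 without control A, B or C or treated A or C (adjusted p from 0.0532 to 0.273).

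Few signalling components upstream of these genes were changed. Among 15 NF-κB subunits and feedback genes, TRAF1, an adaptor of TNF receptors, was higher (2.27, 1.22 and 2.23 CPM in the controls, 8.98, 4.95 and 9.41 in treated cells, log2 fold change 2.01 ± 0.51, adjusted p = 0.0376), whereas 8 of the 15 were higher at day 21. Without control A, B or C or treated A or C the adjusted p of TRAF1 was between 0.0768 and 0.241. Over all genes tested, 0.594% were higher after withdrawal and 2.19% at day 21. The NF-κB subunit RELA was at 0.05 ± 0.19. None of 9 IL-1 receptors and proximal signalling genes changed by edgeR's test or DESeq2's (1 at an unadjusted p under 0.05), and neither did any of 9 AP-1 factors (again 1). FOSL1 and JUN, members of AP-1, had log2 fold changes of 1.00 ± 0.53 and 0.70 ± 0.32 with adjusted p of 0.653 and 0.504. TLR4, the receptor for bacterial lipopolysaccharide, which shares its intracellular pathway with the IL-1 receptor, was higher at 2.44, 2.25 and 1.30 CPM than in the controls at 0.519, 0.204 and 0.203 (log2 fold change 2.54 ± 0.60, adjusted p = 0.0235). Its call was lost without control B, control C, treated A or treated B (adjusted p from 0.0653 to 0.172).

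Across the changed genes, the motifs of these factors were not confined to one direction. A window of 250 bases before to 50 after the RefSeq start was available for 80 of the 114 higher genes, 50 of the 69 lower ones and 11641 of all tested. The NF-κB motif (GGGNNTTCC, or the same with a further T after the NN, on either strand) was present in 8 higher (10%), 3 lower (6%) and 1085 of all windows (9.32%). For the AP-1 motif TGANTCA the numbers were 9 (11.2%), 4 (8%) and 582 (5%), and for the E-box CAGGTG, a sequence that repressors of the SNAI and ZEB families bind, 16 (20%), 11 (22%) and 2155 (18.5%). The E-box counts include any overlap with other motifs. A match describes letters in the window and not a bound site.

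**Figure D3:**
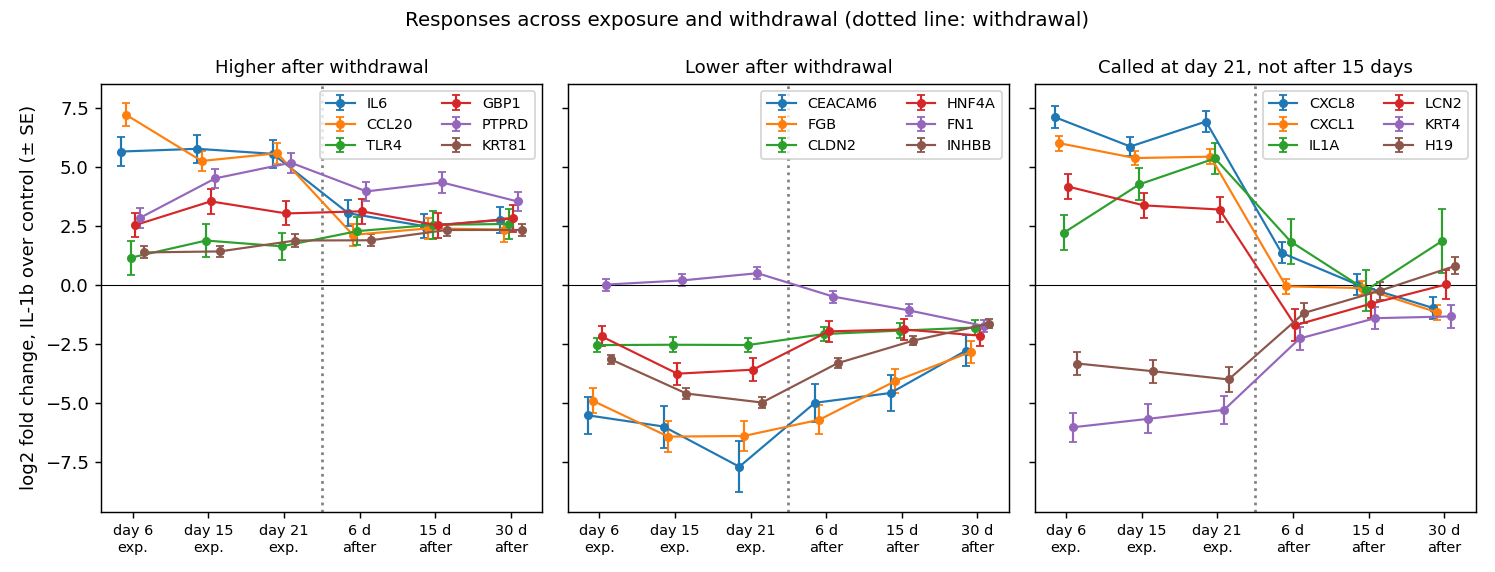
Log2 fold change against the control of the same time point (vertical axis, ± SE) over days 6, 15 and 21 of exposure and days 6, 15 and 30 after withdrawal (horizontal axis), in 3 panels of genes that were higher, lower or not called 15 days after withdrawal. CXCL8 goes from 6.91 on day 21 to 0.02 at 15 days after withdrawal, IL6 from 5.55 to 2.49 and KRT81 from 1.88 to 2.32.

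Several of the largest increases were in genes with few reads in the control cells. PLPP4, a lipid phosphate phosphatase on chromosome 10 (122216739 to 122351577), had 1 read in all 3 control libraries and 89 in the treated ones. This is 1.80, 1.75 and 1.72 CPM in treated A, B and C, and a ratio of 61.4 with a 95% counting interval of 10.7 to 2452. Such intervals cover counting error only, as reads were not counted by molecular identifier. PTPRD, a receptor tyrosine phosphatase on chromosome 9 (8314246 to 10613002) that sits at adhesion sites, was at 0.0649, 0.204 and 0.711 CPM in the controls and at 6.41, 6.18 and 5.82 in treated cells. Its log2 fold change was 4.33 ± 0.44 (adjusted p = 1.09e-06), with 5.04 in the low and 3.59 in the high class, beside 5.17 at day 21 and 3.53 at day 30 after withdrawal. It was the only one of the 3 tested receptor phosphatases of its type (IIa) to change. RRAD, a small GTP-binding protein, and NFASC, a neural adhesion molecule, were also higher, with log2 fold changes of 3.20 ± 0.58 (adjusted p = 0.00238) and 2.43 ± 0.33 (adjusted p = 8.98e-05). NFASC was at 1.43, 2.14 and 1.83 CPM against 12.8, 7.86 and 8.20. These 4 genes kept their calls when any 1 of the 6 libraries was left out.

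BHLHE41, a circadian repressor (log2 fold change 2.69 ± 0.57), DMBT1, a mucosal scavenger receptor (2.31 ± 0.55), and SHISAL1 (2.25 ± 0.48) were also among the largest increases, with adjusted p between 0.0105 and 0.0277. Each lost its call in at least 3 of the 6 omissions. For BHLHE41 these were control A, control C, treated A and treated B (adjusted p up to 0.104). DMBT1 lost its call without control B, control C or treated A (up to 0.192), and SHISAL1 without any control library or treated A (up to 0.0684).

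Several hair keratin genes were higher, of which KRT81 and KRT86 belong to the keratin list. KRT81, a type II keratin of hair cortex on chromosome 12 (52679697 to 52685318), was at 81.3, 76.3 and 60.9 CPM in the controls and at 459, 279 and 356 in the previously treated cells. The log2 fold change was 2.32 ± 0.26 (adjusted p = 3.82e-06), beside values of 1.88 (day 21) and 2.33 (day 30 after withdrawal). KRT86 rose from 11.6, 8.26 and 7.31 to 48.2, 36.9 and 39.5 CPM (2.19 ± 0.25, adjusted p = 4.68e-06), KRT83 from 4.87, 1.84 and 1.32 to 24, 12.3 and 18.3 CPM (2.72 ± 0.42, adjusted p = 0.000422), and the pseudogene KRT87P by 2.32 ± 0.25. KRT85 also rose (2.01 ± 0.28). These 5 are related neighbours on chromosome 12, not all equally alike, and the KRT86 gene model spans KRT81 and KRT87P. The division of reads among the 5 is therefore uncertain. The calls of KRT81, KRT83, KRT86 and KRT87P survived the omission of every single library.

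KRT18 and KRT8 had lower levels after withdrawal without passing the test, and KRT7 did not share this direction, with 1367 to 1628 CPM in the controls and 1399 to 2015 in treated cells. KRT18, which pairs with KRT8 in single-layered epithelia, was at 1677, 1241 and 1340 CPM in the controls and 804, 590 and 1131 in the treated cells. The groups do not overlap, and the log2 fold change was -0.75 ± 0.33 (adjusted p = 0.466). KRT8 had a similar value, -0.70 (adjusted p = 0.466). With high mitochondrial share as a covariate KRT18 passed both thresholds at -1.01 (adjusted p = 0.0052). Of 9 keratins tested from the list, KRT81 and KRT86 were higher and none was lower, and 7 of the 9 log2 fold changes were positive, with a median of 0.86.

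At the cell junctions, 2 of 24 tested genes changed, both lower, beside 0.36% lower over all genes tested, and the median was -0.17. With total-count scaling 1 junction gene was called higher and 1 lower. CLDN2, a pore-forming claudin of tight junctions on chromosome X (106143394 to 106174091), was at 22.1, 23.9 and 34.9 CPM in the controls and fell to 6.54, 4.15 and 10.3 CPM (log2 fold change -1.93 ± 0.30, adjusted p = 0.000536). CGN, the tight junction scaffold cingulin, fell from 28.2, 24.2 and 28.0 to 12.3, 9.89 and 15.7 CPM (-1.08 ± 0.22, adjusted p = 0.0082). CLDN2 kept its call in every omission, and CGN lost it without control C, treated A or treated B (adjusted p from 0.0566 to 0.0668). CDH1, which encodes E-cadherin, stood at 231, 233 and 272 CPM in the controls and at 126, 136 and 172 in the treated cells, without overlap. Its log2 fold change of -0.77 ± 0.29 did not pass the test (adjusted p = 0.323), and was -2.24 at day 21, when it was 196 CPM ± 14.7 in the controls and 41.6 ± 19 with IL-1β (SD, n = 3). JUP, or gamma-catenin, was at -0.97 ± 0.55 (adjusted p = 0.701).

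None of 9 EMT transcription factors changed by either edgeR's or DESeq2's test, although 2 had an unadjusted p under 0.05, and the median log2 fold change was 0.59. SNAI2, which encodes SLUG, was at 2.34, 5.81 and 5.69 CPM in the controls and at 7.83, 16.3 and 7.96 in previously treated cells. The lowest treated library exceeds the highest control, and in each group the replicates of high mitochondrial share have the higher values. The log2 fold change was 1.23 ± 0.46 (adjusted p = 0.313), and with the mitochondrial covariate it was 1.57 (adjusted p = 0.000121). It also passed both limits with total-count scaling, at 1.45 (adjusted p = 0.0366). ZEB2 was at 0.77 ± 0.39 (adjusted p = 0.619). Both had been higher at day 21, at 3.23 and 2.08. None of 4 epithelial regulators changed by edgeR's test, or by DESeq2's (0 at an unadjusted p under 0.05).

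Of 17 tested mesenchymal and matricellular genes, TNC and FBN1 were higher and FN1 lower, with a median of 0.49. The share changed over all genes tested was 0.954%. FBN1, which builds microfibrils, rose from 12.7, 9.59 and 8.33 to 26.7, 26.6 and 20.9 CPM (log2 fold change 1.27 ± 0.23, adjusted p = 0.00241), and its call was kept in every omission. TNC, or tenascin-C, was at 2.27, 1.53 and 0.508 CPM against 7.44, 7.27 and 3.91 (2.05 ± 0.50, adjusted p = 0.0297), less than its 4.42 at day 21 by a difference that did not pass the test (adjusted p = 0.203). Fibronectin, FN1, moved the other way. It fell from 217, 228 and 232 to 102, 105 and 114 CPM, a log2 fold change of -1.07 ± 0.26 (adjusted p = 0.0261), whereas at day 21 it was at 0.50, and the difference between these responses was -1.57 (adjusted p = 0.0408). At day 30 after withdrawal it was lower by -1.74. The groups of FN1 are far apart, but its call was lost without control B, control C or any treated library (adjusted p from 0.0606 to 0.156), as was that of TNC without control B, control C, treated A or treated B (0.0943 to 0.248), and that of the difference from day 21 in all 6 omissions (0.0714 to 0.115). VIM, CDH2 and ACTA2, widely used mesenchymal markers, were at 0.25 ± 0.24, 0.17 ± 0.17 and 0.24 ± 0.31 (adjusted p from 0.864 to 0.885).

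Matrix receptors and structural proteins gave 1 change in each list. ITGB3, the beta chain of a vitronectin receptor, was the only changed gene of 19 integrins, at 9.41, 9.89 and 6.09 CPM in controls and 29.4, 26.3 and 21.1 in treated cells (log2 fold change 1.59 ± 0.27, adjusted p = 0.000987). Its call was kept in every omission, but 33.2% of its exonic bases lie over exons of another gene on the same strand. COL4A5, a chain of basement membrane collagen, was the only one of 24 collagens and laminins, at 1.39 ± 0.32 (adjusted p = 0.0202), and lost its call without control B, control C, treated A or treated C (0.0884 to 0.139). No matrix protease or inhibitor of 12 changed by edgeR's or DESeq2's test. At an unadjusted p under 0.05 there were 5, beside 8.75% of all genes tested, and the median was 0.44.

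**Figure D4:**
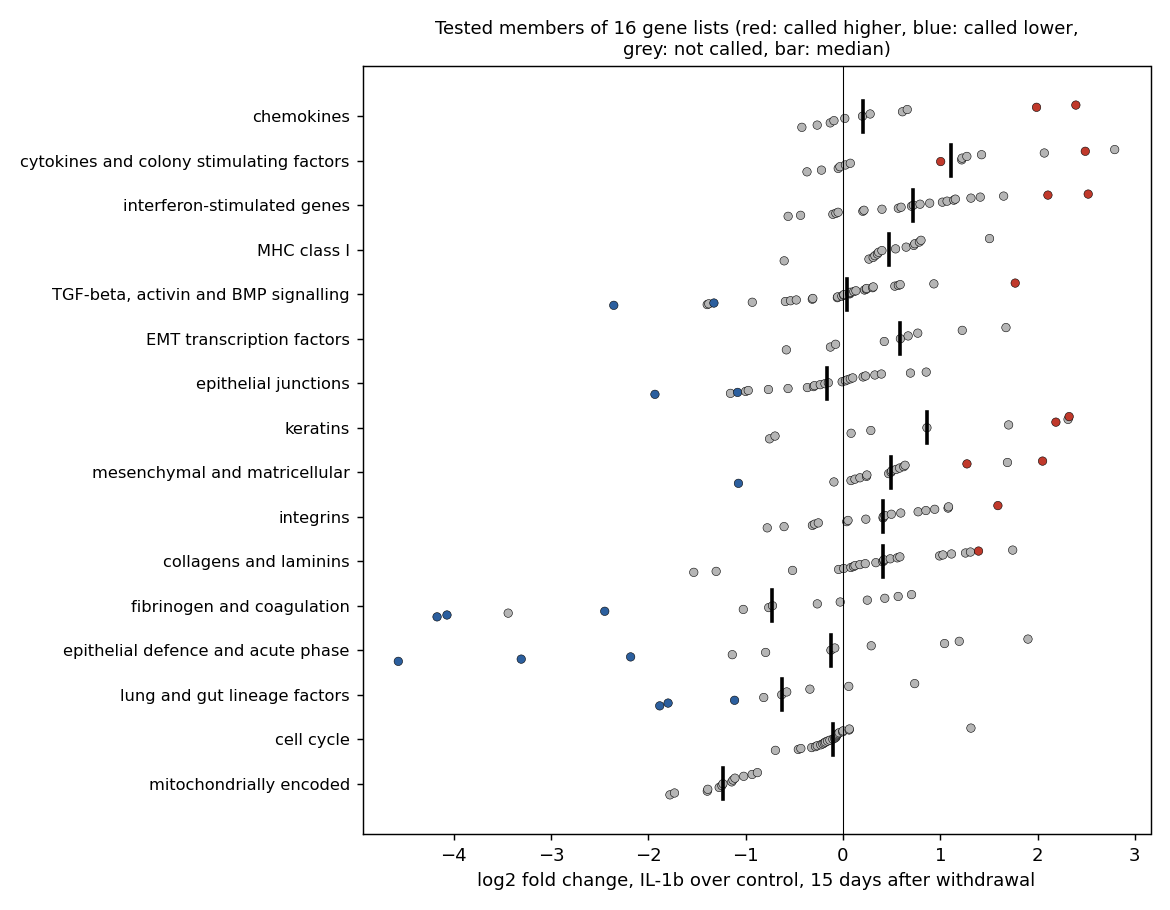
Log2 fold changes 15 days after withdrawal (horizontal axis) of the tested members of 16 gene lists, one row per list and one point per gene, red where called higher, blue where called lower and grey otherwise, with a bar at the median. Fibrinogen and coagulation genes have a median of -0.72, lineage factors -0.63 and keratins 0.86.

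Among the lower genes, several encode plasma proteins best known from the liver. Of 13 fibrinogen and coagulation genes tested, FGA, FGB and F5 were lower, none was higher and the median was -0.72. The share lower over all genes tested was 0.36%. FGB, the fibrinogen beta chain, was at 13.1, 21.8 and 17.6 CPM in the controls and at 0.385, 1.67 and 1.07 in previously treated cells. Its log2 fold change was -4.07 ± 0.50 (adjusted p = 1.56e-05), beside -6.39 at day 21 and -2.83 at day 30 after withdrawal. FGA, the alpha chain, fell from 23.7, 33.4 and 25 to 3.46, 5.75 and 5.78 CPM (-2.45 ± 0.43, adjusted p = 0.00173). APOH, a plasma protein that binds phospholipids, fell by 2.18 ± 0.44 on the log2 scale (adjusted p = 0.00626). Coagulation factor V, F5, had 40 reads in the controls and 3 in the treated libraries, which is 19.3 times less with a 95% counting interval of 6.16 to 97.7. FGA and FGB kept their calls in every omission, while APOH lost its call without treated A (adjusted p = 0.0823) and F5 without control C (0.0608).

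HNF4A, a transcription factor of liver and gut, was also lower. It was at 17.9, 13.4 and 13.8 CPM in the controls and at 3.78, 1.82 and 6.47 in the treated cells (log2 fold change -1.88 ± 0.42, adjusted p = 0.0176, and -3.58 at day 21). SOX2, a factor of foregut progenitors, fell from 11.9, 19 and 9.24 to 6.09, 6.18 and 6.24 CPM (-1.11 ± 0.26, adjusted p = 0.0249). They are among the 3 changed genes, all lower, of 9 lineage factors tested, whose median was -0.63. The share lower over all genes tested was 0.36%. FOXA1 was at -0.81 ± 0.26 (adjusted p = 0.141). HNF4A lost its call without control A, control C, treated A or treated B (adjusted p from 0.0564 to 0.120), and SOX2 without control B or any treated library (0.0724 to 0.308).

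Several epithelial defence genes were lower. CEACAM6, a surface adhesion glycoprotein, was at 7.53, 9.79 and 4.47 CPM in the controls and at 0.321, 0.364 and 0.233 in the treated cells (log2 fold change -4.57 ± 0.76, adjusted p = 0.00103). DEFB1, an antimicrobial defensin, fell from 23.6, 11.3 and 19.4 to 1.09, 1.24 and 3.03 CPM (-3.31 ± 0.57, adjusted p = 0.00136), and GPX2, a glutathione peroxidase of epithelia, from 16.8, 20.9 and 17.0 to 2.95, 2.62 and 3.21 CPM (-2.63 ± 0.49, adjusted p = 0.00336). All of these kept their calls in every omission. Of the 11 epithelial defence and acute phase genes tested, CEACAM6, DEFB1 and APOH were lower and none was higher, with a median of -0.12. GPX2 is not a member of that list. The share lower over all genes tested was 0.36%. LCN2, an iron-sequestering acute phase protein that was higher at day 21 (3.19), was at -0.79 ± 0.62 (adjusted p = 0.827) after withdrawal.

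Other large decreases concern single enzymes and receptors. VAV3, a guanine nucleotide exchange factor, fell from 17.9, 22.2 and 22.2 to 3.01, 5.16 and 4.94 CPM (log2 fold change -2.25 ± 0.28, adjusted p = 1.96e-05). ZNF608 (-2.35 ± 0.40, adjusted p = 0.00127) and SLAIN1, a microtubule-binding protein (-2.23 ± 0.38, adjusted p = 0.00125), kept their calls in every omission, as VAV3 did. PPARGC1A, a coactivator of mitochondrial gene expression, was at 2.79, 4.49 and 8.84 CPM in the controls and at 0.257, 0.364 and 1.35 in the treated cells (-2.92 ± 0.59, adjusted p = 0.00642). In each group the values of PPARGC1A vary by more than 3 times between libraries, and control C and treated C are the highest. NTRK3, a neurotrophin receptor (-2.22 ± 0.47), HGD, an enzyme of tyrosine breakdown (-2.22 ± 0.50), PDE3A, a cyclic nucleotide phosphodiesterase (-2.35 ± 0.41), and MGAM, a starch-digesting enzyme (-2.48 ± 0.57), had adjusted p between 0.0017 and 0.0202. PPARGC1A lost its call without control C or treated A (adjusted p up to 0.0966), PDE3A without control C (0.0504), NTRK3 and HGD without control C, treated A or treated B (up to 0.119 and 0.159), and MGAM in every omission but that of control A (up to 0.113).

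In the TGF-β, activin and BMP pathway, INHBB was the gene with the smallest p of all. It encodes a subunit of activin B and of inhibin B, ligands of the TGF-β family, and lies on chromosome 2 (121103712 to 121109379). The controls had 124, 139 and 158 CPM and the previously treated cells 27.1, 22.7 and 32.4. The log2 fold change was -2.35 ± 0.20 (adjusted p = 3.96e-08), with -2.06 in the low and -2.70 in the high class. At day 21 it had been -4.97, with 3.99 CPM ± 0.89 under IL-1β against 127 ± 18.1 in the controls (SD, n = 3), and the response 15 days after withdrawal was smaller by 2.62 on the log2 scale (adjusted p = 1.83e-06). At day 30 after withdrawal it was -1.64. The ligand BMP4 was lower at 4.17, 3.85 and 8.01 CPM against 13.6, 13.3 and 13.7 (-1.33 ± 0.33, adjusted p = 0.032), and SMAD9, a transducer of BMP signals, was higher at 1.80, 1.31 and 1.07 against 0.390, 0.306 and 0.508 CPM (1.77 ± 0.43, adjusted p = 0.0297). Of 30 genes tested in the pathway 1 was higher and 2 lower, with a median of 0.04. INHBB kept its call in every omission, whereas BMP4 and SMAD9 each kept theirs in 1 of 6, that of treated C (adjusted p from 0.0668 to 0.255 and from 0.0612 to 0.196 in the others). TGFB1 was at 0.24 ± 0.32 and the inhibitory SMAD6 at -0.54 ± 0.24 (adjusted p = 0.887 and 0.492). None of 4 RUNX factors passed both thresholds in the main edgeR fit or by DESeq2, and 2 had an unadjusted p under 0.05. RUNX2 passed the test at a fold under 2, with 11.6, 10.4 and 9.45 CPM in the controls, 21.5, 19.4 and 19.7 in treated cells and a log2 fold change of 0.94 ± 0.20 (adjusted p = 0.0115). It passed both limits in edgeR's test with total-count scaling, at 1.13 (adjusted p = 0.00145). The same held with the mitochondrial covariate, at 1.004 (adjusted p = 0.0008805).

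Of the list of interferon-stimulated genes, 2 guanylate-binding proteins were changed. GBP1, a GTPase that acts on intracellular pathogens, was at 0.649, 1.73 and 1.22 CPM in the controls and at 5.45, 10.2 and 4.61 in the previously treated cells (log2 fold change 2.52 ± 0.52, adjusted p = 0.0082). GBP3 rose from 2.79, 3.37 and 2.23 to 10.0, 18.0 and 8.34 CPM (2.11 ± 0.41, adjusted p = 0.0048). These were the changed genes of 23 interferon-stimulated genes tested. For 10 of the 23 the treated libraries lay above all controls, and the median was 0.72, beside a background of 6.02% and 0.02 over all genes. OAS1, an enzyme that senses double-stranded RNA, was at 0.89 (adjusted p = 0.0105), under the fold threshold. GBP1 lost its call without control A, control C or treated B (adjusted p from 0.0552 to 0.0611) and GBP3 without control C (0.0605). None of 14 MHC class I genes passed both thresholds in the main edgeR fit or by DESeq2. At an unadjusted p under 0.05 there were 6, beside 8.75% of all genes tested, and the median was 0.47. With total-count scaling 1 of the 14 was called higher.

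Of 9 immune checkpoint ligands, PDCD1LG2, which encodes PD-L2, was called higher. It had no read in any of the 3 control libraries and 0.770, 0.727 and 0.186 CPM in the treated ones, and was at least 2.09-fold higher if each control library is set to a floor of 3 reads. The call rests on few reads, and was lost in every omission but that of treated C (adjusted p from 0.0517 to 0.0909). CD274, which encodes PD-L1, was at 0.974, 0.816 and 1.83 CPM in the controls and 1.80, 2.18 and 1.86 in treated cells, and its log2 fold change of 0.70 ± 0.50 did not pass the test (adjusted p = 0.801). SEMA3F, a guidance cue, was the changed gene of 11 semaphorins and receptors (1.74 ± 0.43, adjusted p = 0.0339), and HBEGF, a ligand of the EGF receptor, that of 10 EGF receptors and ligands (1.06 ± 0.27, adjusted p = 0.0427). SEMA3F lost its call in 5 omissions, all but that of treated B, and HBEGF in all 6, with adjusted p up to 0.238 and 0.262. Without the filter on low counts neither was called by edgeR's test (adjusted p = 0.0548 and 0.0703). HBEGF also lost its call in that test when scaled by DESeq2's size factors (0.0514) or without mitochondrially encoded genes (0.0541).

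Some genes called after withdrawal had not been called at any exposure time. Of those named in this paragraph, FN1 was the only one whose difference from day 21 passed the test. The adjusted p of the others named here was 0.113 or higher. MATN2, not changed at day 21 and described under the other observations, also passed that test. Beside TLR4, CCL26, FBN1, SMAD9 and SEMA3F, these include CLIC3, a chloride channel protein, and DIO2, which activates thyroid hormone, on the higher side. DIO2 was at 0.714, 1.73 and 1.02 CPM against 3.14, 4.29 and 4.47 (log2 fold change 1.81 ± 0.37, adjusted p = 0.00678). The 5 lower ones include FN1, described above, EDN1, the vasoconstrictor peptide endothelin 1, at 72.1, 131 and 162 CPM in the controls and 35.2, 63.6 and 53.2 in treated cells (-1.26 ± 0.31, adjusted p = 0.0304), and the adhesion molecule CADM1, at 30.7, 41.3 and 71.4 against 16.2, 22.7 and 25.8 CPM (-1.15 ± 0.22, adjusted p = 0.00342). Both already had fold changes of the same sign at day 21, at -0.93 and -0.94, and those of CADM1 and TMTC2 missed the fold limit only (adjusted p = 0.00467 and 0.00507 at day 21). TMTC2 (-1.20 ± 0.22) kept its call in every omission, and CNKSR2 (-1.05 ± 0.26) lost it in all but that of control A (adjusted p up to 0.332). EDN1 lost its call without control B, control C, treated A or treated C (0.0796 to 0.292), CADM1 without control C or treated A (0.0596 and 0.104), DIO2 without control A or C (0.0574 and 0.0628), and CLIC3 in all 6 (up to 0.242).

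**Figure D5:**
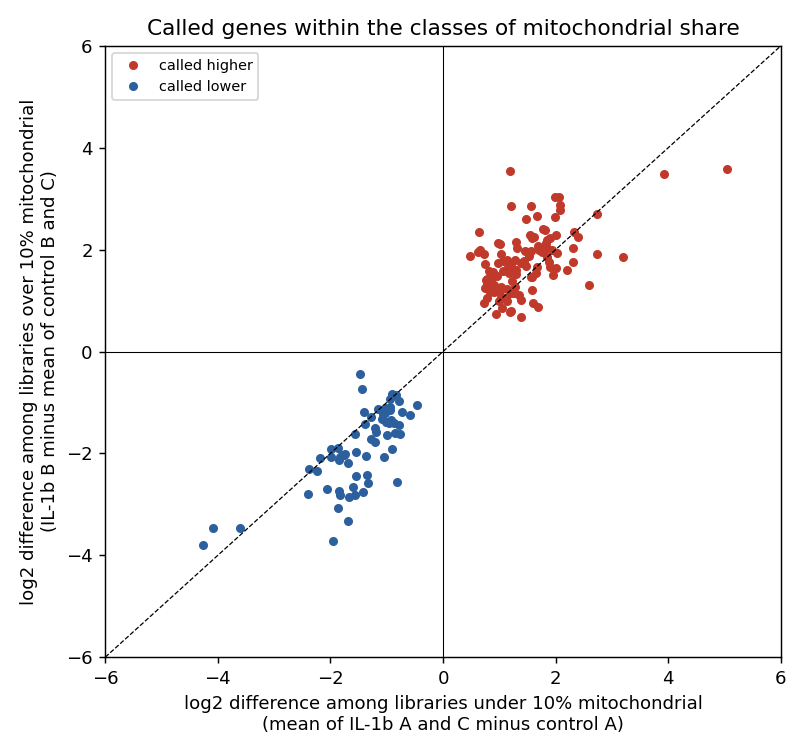
Log2 difference between previously treated and control libraries of low mitochondrial share (horizontal axis) and of high share (vertical axis) for the 183 changed genes, one point per gene, red for higher and blue for lower ones, with a dashed line of equality. The equal signs follow from the choice of genes. The medians are 1.30 and 1.73 for the higher genes and -1.35 and -1.77 for the lower ones.

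The response 15 days after withdrawal was set beside its neighbours in time. It differed from that at day 21 for 74 genes (0.386%), with 990 (5.16%) at an unadjusted p under 0.05. No gene passed the test for a difference from the response at day 6 or at day 30 after withdrawal, by edgeR or by DESeq2 (0.0% called). At an unadjusted p under 0.05 there were 245 genes (1.28%) and 307 genes (1.6%). The lack of calls does not show that the responses were equal. Of the 114 higher genes, 88 were also called at day 6 and 53 at day 30 after withdrawal, and of the 69 lower genes 56 and 46. Over all genes tested, 1.08% and 0.433% were higher and 0.725% and 0.464% lower at these times. Beside the chemokines, the differences from day 21 include KRT4, a keratin of stratified mucosa, and FGL1, a secreted fibrinogen-like protein, which were at -5.28 and -5.10 at day 21 and at -1.41 ± 0.48 and -1.46 ± 0.45 after withdrawal (adjusted p = 0.207 and 0.13). With the mitochondrial covariate both were called lower, at -1.67 and -1.57 (adjusted p = 0.0148 and 0.0306). ABAT, which breaks down GABA, went from 4.67 to 1.01 ± 0.30 (adjusted p = 0.111). The long noncoding RNA H19 went from -4.00 to -0.25 ± 0.38 (adjusted p = 0.893).

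In the lists of growth and metabolism, none of 25 cell cycle genes, 16 NRF2 targets, 14 genes of sterol and fatty acid synthesis, 18 glycolytic enzymes, 20 chromatin-modifying enzymes or 15 BCL2 family members and inhibitors of apoptosis was called by edgeR or by DESeq2. At an unadjusted p under 0.05 there were 2, 6, 4, 2, 1 and 4 of them in this order, and the medians were -0.10, 0.13, -0.17, 0.23, -0.05 and 0.35. GPX2, the glutathione peroxidase called lower above, is in none of these lists, so the count of NRF2 targets does not cover it. With the mitochondrial covariate, 1 glycolytic gene and 1 gene of the BCL2 list were called higher, as was 1 glycolytic gene with total-count scaling. Of 8 mucins and 10 genes of prostaglandin synthesis and reception none was called by edgeR and 1 in each by DESeq2, with 3 and 5 at an unadjusted p under 0.05 and medians of -0.29 and 0.08. HDAC9, a histone deacetylase, was at 0.91 ± 0.40 (adjusted p = 0.476), and MAP4K1, a kinase upstream of JNK, at -0.14 ± 0.31 (adjusted p = 0.923). None of 13 mitochondrially encoded genes was called (1 at an unadjusted p under 0.05, 0 by DESeq2), and their median was -1.23. For none of the 13 did the groups separate, and with the mitochondrial covariate the median was -0.47. With total-count scaling the medians of the junction, defence, cell cycle, sterol and chromatin lists turned positive, at 0.01, 0.10, 0.08, 0.0029 and 0.15.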

How the data were processed

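RNA from A549 cells was sequenced after preparation with a strand-marking mRNA kit, in 36 libraries of 12 groups, of which 6 are reported here. Per the submitters' processing notes and methods, the authors aligned single-end reads to GRCh37 with TopHat2 2.0.14 and Bowtie2 2.2.5 and counted them per Ensembl gene with HTSeq 0.6.1. The deposited values are raw counts, and the strand setting and annotation release are not given in the sources used here. Reads on no gene made up 9.85% to 15.3% of the reads in these 6 libraries and were left out. Counts were scaled by TMM, and edgeR 4.0.16 (R 4.3.3) fitted its quasi-likelihood model jointly to the 36 libraries, 1 term per group (24 residual degrees of freedom), with 19180 of 63677 genes kept by filterByExpr. A gene was called where its fold change exceeded 2 and its Benjamini-Hochberg adjusted p was below 0.05. Log2 CPM used a prior count of 2. Differences between responses were interaction contrasts in the same fit, each time point having its own controls.

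The genes named are the 15 largest changes in each direction (separate groups, a mean of at least 1 CPM in the higher group), list members that were called or that the study names, the 6 largest differences from day 21 in each direction, and the 6 largest changes in each direction among genes not called during exposure. Members and the 33 gene lists and 5 marker lists were chosen with earlier results of these data known, and KRT85 and OAS1 were named after their values were seen. Symbols and positions came from GENCODE v44lift37 (55665 genes matched) and overlaps from bedtools 2.31.1. Promoter windows are the first RefSeq entry of each gene. The fit was tested on simulated data with known changes. Alternatives were other scalings and filters, DESeq2 1.42.0, the likelihood ratio test, a replicate block, the mitochondrial class (over 10% of counts) as covariate or left out, a separate fit, other thresholds and the omission of each library. Results for some items that the rule would name are not reported here.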

Additional observations from a re-analysis of the deposited data

Results flagged for a closer look

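The response 15 days after withdrawal differed from the response at day 21 of exposure for 74 genes by edgeR's interaction test (36 less negative or more positive after withdrawal, 38 the opposite), and the named ones are given here as the log2 difference, withdrawal minus day 21. Among genes that IL-1β had raised, the difference was -6.89 for CXCL8, -5.57 for IL1A, -5.56 for CXCL1, -3.98 for LCN2, -3.96 for CXCL3, -3.66 for ABAT, -3.18 for CCL20 and -3.11 for CCL2. Among genes that it had lowered, the difference was 3.88 for KRT4, 3.75 for H19, 3.64 for FGL1, 3.59 for the gene with identifier ENSG00000253666, 3.58 for TERT, 3.52 for LINC02532, 2.62 for INHBB and 1.73 for VAV3. FN1 was not called at day 21 and differed by -1.57. The calls of INHBB, CXCL8, CCL2, H19, LINC02532, CXCL1, CXCL3 and ABAT were kept whichever of the 6 libraries was left out. IL1A rests on few reads, with 0.455, 0 and 0 CPM in the controls after withdrawal and 0.128, 0.364 and 0.0466 in treated cells, and its difference was -0.90 without control A (adjusted p = 0.877), with the call also lost without treated A (0.0703) or treated C (0.0902). LCN2 lost its call without control A or treated C (0.0868 and 0.0703), KRT4 and FGL1 without treated C (0.0581 and 0.0559), CCL20 without control A or treated C (0.573 and 0.0639), and FN1 in all 6 omissions. VAV3 lost its call in every omission but that of treated A (up to 0.151). The gene ENSG00000253666 lost its call without any control library or treated C (up to 0.406) and TERT without control B, control C, treated A or treated C (up to 0.151).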

How the results depend on the processing

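For previously treated against control cells, the 183 calls became 99 with at least 10 counts in every library, 90 at an adjusted p under 0.01, 27 without the 11 high-mitochondrial libraries (23 of them among the 183), 2 in a separate fit of the 6 libraries, 114 in that fit with a replicate block, and 291 with the mitochondrial covariate and the replicate block. Omissions of 1 library or 1 replicate letter gave 64 to 209. The 74 differences from day 21 became 113 with the mitochondrial covariate, 134 with covariate and replicate block and 31 at an adjusted p under 0.01, and 32 to 65 on omission. Every other setting stayed within 1.5 times these counts, DESeq2 giving 215 and 107, and the comparisons with days 6 and 30 after withdrawal gave 0 in every setting. The letters A, B and C were not taken to pair these libraries, since the deviations of same-lettered libraries from their group means correlated at 0.64, 0.56 and -0.34 across genes. The negative value joins libraries of different mitochondrial share, and at day 21 and at day 30 after withdrawal all 3 values were positive (0.20 to 0.26 and 0.31 to 0.46), so pairing is not excluded. The replicate block gave 243 calls, including all of the 183, and called KRT4 (-1.52, adjusted p = 0.0101) and FGL1 (-1.55, 0.0131), which were not called without it. Directions reversed for genes with small fold changes. CXCL8 was at -0.00098 without mitochondrially encoded genes, -0.013 with the replicate block, -0.018 in the separate fit with block and -0.63 without high-mitochondrial libraries. MAP4K1 was at 0.10 with total counts and 0.46 without high-mitochondrial libraries, H19 at 0.19 without them, RELA at -0.032 and -0.037 with the covariate without and with block, and CXCL1 at 0.052 with total counts. On omission of libraries or letters the log2 fold changes were -0.64 to 0.38 for CXCL8, -0.34 to 0.21 for MAP4K1, -0.023 to 0.43 for VIM, -0.030 to 0.18 for RELA, -0.74 to 0.20 for H19, -0.56 to 0.036 for LINC02532, -1.61 to 4.59 for IL1A and -0.30 to 0.058 for CXCL1. Of 57 named called genes, 23 kept their call in each omission of 1 library. The cause of these shifts was not tested. The separate fit has 4 residual degrees of freedom in place of 24, and genes under about 1 CPM rest on few reads.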

Other observations

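The genes described here were chosen after their values were seen. RNF43, NKD1 and AXIN2, each known to restrain Wnt signalling, were called lower 15 days after withdrawal, and no list of that pathway was counted. Whether Wnt signalling itself was higher or lower was not tested. RNF43, a ligase that removes Frizzled receptors from the surface, was at 11.6, 12.4 and 15.7 CPM in the controls and at 2.37, 1.82 and 5.26 in previously treated cells (log2 fold change -2.04 ± 0.34, adjusted p = 0.000935), and kept its call in every omission of 1 library. NKD1, a Dishevelled-binding protein (-1.99 ± 0.49, adjusted p = 0.0311), and AXIN2, a scaffold of the beta-catenin destruction complex (-1.44 ± 0.36, adjusted p = 0.032), lost theirs in every omission but that of treated C (adjusted p up to 0.246 and 0.187). In all of these genes treated C lay nearest to the controls, and at day 21 their log2 fold changes had been -2.50, -1.96 and -1.51. For AXIN2, 25.3% of the exonic bases lie over exons of another gene on the same strand.

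Among secreted and surface proteins, FSTL1, a follistatin-like glycoprotein, had the second smallest p of all genes, with 42.1, 40.5 and 41.5 CPM in the controls and 84.0, 86.5 and 88.1 in treated cells (1.06 ± 0.10, adjusted p = 2.97e-07). OLFML3 was lower at 9.75, 8.58 and 14.6 CPM against 24.8, 33.5 and 40.0 (-1.57 ± 0.18, adjusted p = 4.66e-06). IGFBP3, which binds insulin-like growth factors, fell from 408, 540 and 645 to 176, 222 and 282 CPM (-1.23 ± 0.19, adjusted p = 0.000352). The receptors SLAMF7 and FPR1, both best known from leukocytes, rose by 2.01 ± 0.30 and 2.21 ± 0.35 while the summed leukocyte markers overlapped between the groups. These 5 genes kept their calls in every omission.

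MATN2, a matrix protein, was at 22.6, 20.9 and 27.6 CPM in the controls and at 46.6, 53.3 and 58.5 in treated cells (1.16 ± 0.18, adjusted p = 0.000652), against 0.04 at day 21. The difference from day 21, 1.11 (adjusted p = 0.0457), lost its call in every omission but that of control C. The glucose transporter SLC2A3 was at -1.16 ± 0.27 (adjusted p = 0.0254) after -3.11 at day 21, a difference of 1.96 (adjusted p = 0.0125), and its call after withdrawal was lost without control C, treated A or treated B (0.154 to 0.339), that of the difference without control B or treated C (0.059 and 0.0803). Of the processed pseudogenes of KRT8, KRT8P45, KRT8P5 and KRT8P35 were called lower, at -1.30, -1.48 and -1.65, and may share reads with KRT8 itself, which was at -0.70 and not called. KRT8P45 and KRT8P5 lost their calls without control B, control C or treated A, and KRT8P35 without control B or treated A (adjusted p up to 0.0913).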
